A study of Mus musculus with 8 samples.

Results

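Purkinje cell genes were followed in the cerebellum of spinocerebellar ataxia type 17 (SCA17) knock-in mice. The genes were taken from a list of 29 that are known to be enriched in Purkinje cells, and 28 of them had a probe set on the array that carried their symbol alone, out of 19938 genes named that way. Itpr1, the inositol trisphosphate receptor, was not analysed here. Kcnma1 had 2 such probe sets and the brighter was used; the others had 1. Total RNA of 2 tissues, cerebellum and tibialis anterior muscle, was measured on 8 Affymetrix arrays of the Mouse Gene 1.0 ST design. They formed 4 groups of 2: cerebellum of knock-in (KI) mice, with replicates 94 and 97, cerebellum of wild-type (WT) mice, with replicates 95 and 96, and the muscle of both genotypes under the same numbers. All animals were 3 months old. The length of the repeat in the KI allele, the number of KI alleles, the strain and the sex are not stated in the labels. The study's text speaks of 3 mice per genotype, while each group analysed here has 2 arrays. The labels do not tie an array to an animal, so p-values measure only the spread between these arrays. Tbp, the gene that is altered in SCA17, was at 7.68 and 7.52 in KI and at 7.85 and 7.71 in WT cerebellum on the log2 scale (difference -0.18 ± 0.12, SE; adjusted p = 0.998), a level summed over both alleles.

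Purkinje cells are the output neurons of the cerebellar cortex and are lost or impaired in many inherited ataxias. They receive parallel fibre and climbing fibre input. At the parallel fibre synapse, glutamate acts on the receptor mGluR1, which activates phospholipase C beta through a G protein. The inositol trisphosphate so made releases calcium from internal stores through its receptor, and calcium channels, pumps and buffers shape the signal that follows. The nuclear receptor RORA and several homeodomain factors set up and maintain the identity of the cell. Some of the genes are also used elsewhere: Pvalb in interneurons of the molecular layer and in fast muscle fibres, Cacna1a in granule cells, and Nefh in large neurons of the cerebellar nuclei.

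In KI cerebellum, the Purkinje cell genes lay below WT. All 28 had a negative KI minus WT difference, where 52.5% of the 13641 genes tested did. The median difference over the 28 was -0.44 on the log2 scale, a 1.36-fold lower level, against -0.01 over all genes tested. Both KI arrays lay below both WT arrays in 21 of the 28, against 20.0% of all genes tested, and in 0 did both lie above, against 15.3%. No gene of the list passed an adjusted p of 0.05 in the limma fit, which called 0.205% of all genes tested (28 genes), while 16 of the 28 were lower at an unadjusted p under 0.05, against 3.06% of all genes. In the lowest 10% of all differences were 23 of the 28. The filter on low values removed none of the 28, since each reached the 40th percentile on the 4 cerebellum arrays. The median difference and the counts describe the list and are not a test of it. These are arrays of whole tissue, so fewer Purkinje cells and less RNA of these genes in each cell cannot be told apart.

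**Figure D1:**
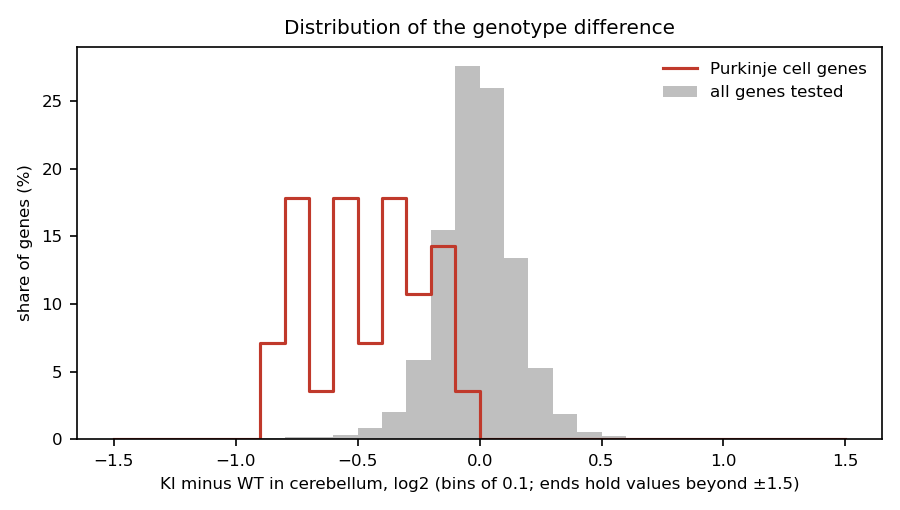
Distribution of the KI minus WT difference in the cerebellum on the log2 scale (x axis, bins of 0.1, the end bins holding all values beyond) as a share of genes in percent (y axis). Grey bars are the 13641 genes tested and the red line the 28 Purkinje cell genes; the whole red line lies below 0, with a median of -0.44.

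The KI arrays were not equally low. KI replicate 94 was below both WT arrays in 26 of the 28 genes and KI replicate 97 in 22, and replicate 94 was the lower of the KI arrays in 26. The median over the genes, relative to the WT mean of each gene, was -0.58 for replicate 94 and -0.35 for replicate 97, while the WT arrays stood at -0.05 and 0.05. Without KI replicate 94 the median difference was -0.35 and 25 of the 28 differences were negative; without KI replicate 97 they were -0.58 and 27.

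**Figure D2:**
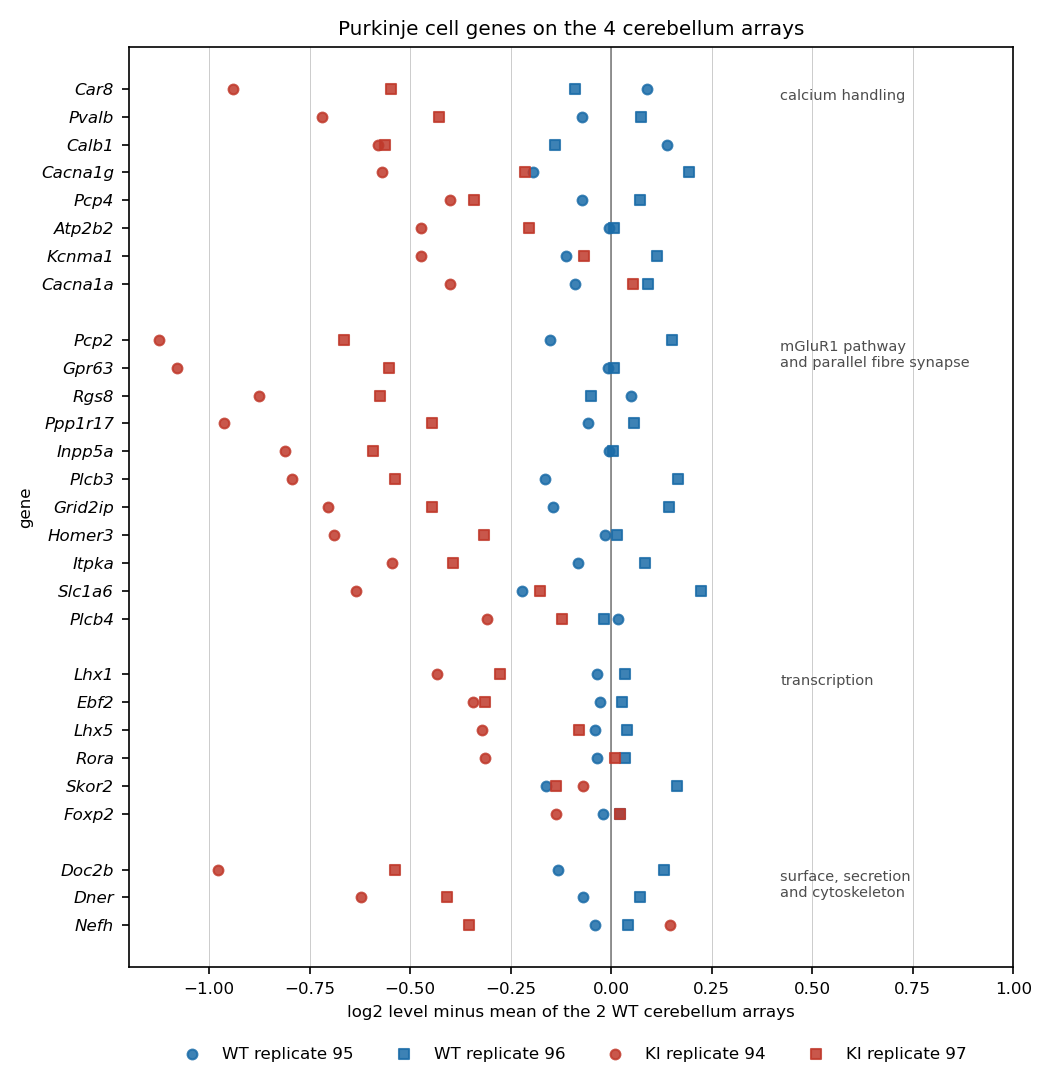
Log2 level of each of the 28 Purkinje cell genes on the 4 cerebellum arrays, minus the mean of the 2 WT arrays (x axis), grouped by role (y axis). Blue symbols are WT and red symbols KI arrays; in 21 genes both red symbols lie left of both blue ones, and KI replicate 94 (red circles) is the lower KI array in 26.

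Among the role groups, the genes listed under the mGluR1 pathway and the parallel fibre synapse had the lowest median difference (-0.67). All 11 were negative, and 8 were so at an unadjusted p under 0.05 in limma, against 3.06% of all genes tested. In 10 both KI arrays lay below both WT arrays, against 20.0% of all genes. Inpp5a, the phosphatase that removes a phosphate from inositol trisphosphate, had the smallest p of the list (probe set 10558515). It measured 9.24 and 9.46 in KI against 10.04 and 10.05 in WT. The KI arrays were well apart from the nearly equal WT arrays, at a 1.63-fold lower level (-0.70 ± 0.11, SE; adjusted p = 0.0612). Pcp2, also called L7, a regulator of inhibitory G proteins found almost only in Purkinje cells and retinal bipolar cells (probe set 10576749), measured 7.56 and 8.02 in KI against 8.53 and 8.84 in WT. That was the largest difference of the 28, 1.86-fold (-0.89 ± 0.17; adjusted p = 0.148), and the groups did not overlap. Rgs8, a protein that speeds the switching off of G protein alpha subunits (probe set 10350725), measured 9.32 and 9.62 in KI against 10.24 and 10.14 in WT. It was 1.65-fold lower (-0.73 ± 0.14; adjusted p = 0.153).

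The 2 phospholipases of the pathway stood at different distances from WT. Plcb3 and Plcb4 make inositol trisphosphate in largely complementary sets of Purkinje cells. Plcb3 (probe set 10465521) measured 6.49 and 6.75 in KI against 7.12 and 7.45 in WT, 1.59-fold lower without overlap (-0.67 ± 0.14; adjusted p = 0.224). Plcb4 measured 9.63 and 9.82 in KI against 9.96 and 9.92 in WT, also without overlap (-0.22 ± 0.12; adjusted p = 0.998). Whether the 2 differences differ was not tested. Gpr63, an orphan receptor coupled to G proteins (probe set 10503647), measured 5.85 and 6.37 in KI and 6.92 and 6.93 in WT. Its KI arrays were further from each other than its WT arrays, and the level was 1.76-fold lower (-0.82 ± 0.18; adjusted p = 0.280).

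Scaffold, transporter and phosphatase regulator genes of the synapse lay on the same side. Homer3, which ties mGluR1 to calcium release sites, measured 7.18 and 7.56 in KI against 7.86 and 7.89 in WT (-0.50 ± 0.14). Grid2ip, or delphilin, which binds the glutamate receptor GluD2, measured 6.27 and 6.53 against 6.83 and 7.12 (-0.58 ± 0.15). Ppp1r17, the phosphatase inhibitor known as G-substrate, measured 8.42 and 8.94 against 9.33 and 9.44 (-0.70 ± 0.33), with a wide gap between its KI arrays. Itpka, a kinase of inositol trisphosphate, measured 5.99 and 6.14 against 6.45 and 6.62 (-0.47 ± 0.16). These 4 did not overlap between genotypes. Slc1a6, the glutamate transporter EAAT4 of Purkinje cell spines, was the gene of this group whose arrays overlapped: 7.16 and 7.62 in KI, 7.58 and 8.02 in WT (-0.41 ± 0.19). The lowest adjusted p among these 5 was 0.428 (Grid2ip) and the highest 0.953 (Slc1a6).

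Calcium handling genes were lower in all 8 cases (median -0.38). Of these, 4 had an unadjusted p under 0.05 in limma (3.06% of all genes tested) and 6 were free of overlap (20.0%). Pvalb, the calcium buffer parvalbumin (probe set 10430297), measured 9.51 and 9.80 in KI against 10.16 and 10.30 in WT, 1.49-fold lower (-0.57 ± 0.13; adjusted p = 0.310). Calb1, the buffer calbindin and a standard marker of Purkinje cells, measured 10.82 and 10.84 in KI against 11.54 and 11.26 in WT (-0.57 ± 0.13; adjusted p = 0.310). Its KI arrays were nearly equal. Car8, which binds the inositol trisphosphate receptor and lowers its affinity for the ligand, measured 9.96 and 10.35 against 10.99 and 10.81 (-0.74 ± 0.23; adjusted p = 0.648). Pcp4, a calmodulin-binding peptide, measured 10.60 and 10.66 against 10.93 and 11.08 (-0.37 ± 0.17; adjusted p = 0.938). Each of these 4 was low on both KI arrays.

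The channel and pump genes were 4 of the 8. Atp2b2, a calcium pump of the plasma membrane, measured 9.69 and 9.96 in KI and 10.16 and 10.17 in WT (-0.34 ± 0.21). Cacna1g, a T-type calcium channel, measured 7.49 and 7.85 against 7.87 and 8.26 (-0.39 ± 0.16), where the higher KI array almost reached the lower WT array. Cacna1a, the P/Q-type calcium channel that is mutated in SCA6, measured 9.08 and 9.53 against 9.39 and 9.57 (-0.17 ± 0.16). Kcnma1, the large-conductance potassium channel opened by calcium, measured 7.97 and 8.37 against 8.33 and 8.55 (-0.27 ± 0.16). In the last 2 genes KI replicate 97 lay between the WT arrays. The dimmer probe set of Kcnma1, below the 40th percentile on all 8 arrays, gave 0.07.

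Transcription factors of the lineage differed least among the role groups, but several were measured at low levels. Lhx5, Skor2 and Ebf2 lay between 5.07 and 6.10, where the medians of the cerebellum arrays were 5.46 to 5.51. Rora was the brightest, at 9.01 to 9.36. The part of the low levels in this ranking was not tested. All 6 transcription factors had negative differences (median -0.18), where 52.5% of all genes tested did. The arrays of 3 overlapped, and in the other 3 both KI arrays lay below both WT arrays (20.0% of all genes). An unadjusted p under 0.05 in limma was reached by 2 (3.06% of all genes were lower at that p). Lhx1, a LIM homeodomain factor, measured 7.0 and 7.16 in KI against 7.40 and 7.47 in WT (-0.36 ± 0.12; adjusted p = 0.760). Ebf2, a helix-loop-helix factor of late-born Purkinje cells, measured 5.73 and 5.76 against 6.05 and 6.10 (-0.33 ± 0.11; adjusted p = 0.727). Lhx5, the paralogue of Lhx1, measured 5.07 and 5.31 against 5.35 and 5.43 (-0.20 ± 0.15). These 3 had no overlap. Rora measured 9.01 and 9.33 against 9.29 and 9.36 (-0.15 ± 0.12), Foxp2, a forkhead factor, 6.37 and 6.52 against 6.48 and 6.52 (-0.06 ± 0.11), and Skor2, a corepressor needed for Purkinje cell differentiation, 5.72 and 5.66 against 5.63 and 5.96 (-0.10 ± 0.19). Without KI replicate 94, Rora stood at 0.010, Foxp2 at 0.022 and Cacna1a at 0.054, and without WT replicate 96 Skor2 stood at 0.060.

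Of the remaining 3 genes, those of the cell surface and of secretion were low and the cytoskeletal gene was not. Dner, a membrane protein that signals to Bergmann glia through Notch, measured 9.86 and 10.08 in KI against 10.41 and 10.56 in WT (-0.52 ± 0.12; adjusted p = 0.310). Doc2b, a calcium sensor of vesicle release, measured 6.69 and 7.13 against 7.53 and 7.80 (-0.76 ± 0.20; adjusted p = 0.453). Nefh, the heavy neurofilament chain, measured 9.02 and 8.52 against 8.83 and 8.92 (-0.10 ± 0.20; adjusted p = 1.00). Its KI arrays lay on either side of WT, and without KI replicate 97 its difference was 0.15.

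Promoter sequence was also described, since both TBP and RORA bind short DNA motifs near gene starts. RefSeq promoter windows (GRCm38.p6, from 250 bases before to 50 after a start) were matched for 17 of the 28 genes, with 30 windows in all. The letters AGGTCA, the core bound by RORA, were found on either strand in 9 of the 30 windows (30.0%), in 7 of the 17 genes, against 16.3% of all 32851 windows and 18.1% of all 27025 genes. The letters TATAAA, bound by TBP, were found in 1 window of the 30 (3.33%), of Pcp2, against 13.6% of all windows. That window of Pcp2 was not one of its 3 windows with AGGTCA. Windows of a gene can overlap, and 3 of the 9 matching windows were of Pcp2 alone. The 17 genes had more windows per gene than all genes did, so each had more chances of a match. The shares are therefore not like for like. A match describes letters only, without regard to the bases beside them. Whether TBP or RORA acts on these genes was not tested. The 250 bases before the first listed start are shown for the 5 genes in which that stretch holds AGGTCA, since these are the members in which the core lies in front of the gene. They are written along the gene from 5′ to 3′, with the match in capitals (TGACCT where it lies on the opposite strand).
Pcp2 (chr8:3625548-3625797, minus strand): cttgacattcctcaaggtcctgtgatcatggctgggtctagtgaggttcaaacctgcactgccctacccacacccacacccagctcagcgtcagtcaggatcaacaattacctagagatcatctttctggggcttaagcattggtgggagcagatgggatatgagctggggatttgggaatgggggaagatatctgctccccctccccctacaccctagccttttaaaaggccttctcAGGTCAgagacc
Dner (chr1:84696222-84696471, minus strand): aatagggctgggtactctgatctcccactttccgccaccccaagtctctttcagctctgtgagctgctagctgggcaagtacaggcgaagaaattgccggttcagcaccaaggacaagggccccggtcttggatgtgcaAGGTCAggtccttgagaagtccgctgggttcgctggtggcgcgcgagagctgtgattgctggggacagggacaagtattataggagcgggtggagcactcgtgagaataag
Pcp4 (chr16:96467356-96467605, plus strand): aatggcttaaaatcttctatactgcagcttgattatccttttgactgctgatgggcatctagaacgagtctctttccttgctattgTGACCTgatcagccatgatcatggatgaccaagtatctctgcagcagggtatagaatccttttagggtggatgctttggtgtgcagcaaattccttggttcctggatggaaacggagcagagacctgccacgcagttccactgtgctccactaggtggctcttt
Plcb3 (chr19:6969815-6970064, minus strand): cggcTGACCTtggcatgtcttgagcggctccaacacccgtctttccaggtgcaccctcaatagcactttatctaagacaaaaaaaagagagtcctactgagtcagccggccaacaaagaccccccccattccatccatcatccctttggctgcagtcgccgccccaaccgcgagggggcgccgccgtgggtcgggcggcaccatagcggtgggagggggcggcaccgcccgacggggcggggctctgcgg
Homer3 (chr8:70282749-70282998, plus strand): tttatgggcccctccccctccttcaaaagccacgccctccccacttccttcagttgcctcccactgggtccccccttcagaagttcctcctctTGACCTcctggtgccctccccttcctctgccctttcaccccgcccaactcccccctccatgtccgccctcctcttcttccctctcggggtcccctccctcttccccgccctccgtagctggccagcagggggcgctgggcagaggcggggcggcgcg
Of these 5 genes, Pcp2 and Plcb3 had the lowest KI values relative to WT and Pcp4 the least low. In each the arrays of the genotypes did not overlap, as was so in 21 of the 28 genes. Inpp5a, with the smallest p of the list, had neither set of letters in its 2 windows.

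Other genes of the same signalling pathway showed smaller differences. Of 47 listed, 40 were on the array and tested in the cerebellum. None passed (0.205% of all genes tested did), 28 had negative differences (52.5% of all genes did), and the median was -0.12. Both KI arrays lay below both WT arrays in 18, against 20.0% of all genes. They lay above in 6, about the share over all genes (15.3%). Gng13, a G protein gamma subunit, measured 7.28 and 7.61 in KI against 8.22 and 8.25 in WT (-0.79 ± 0.21; adjusted p = 0.458), the lowest of the 40. Atp2a3, the calcium pump SERCA3 of internal stores, measured 7.26 and 7.85 against 8.08 and 8.25 (-0.61 ± 0.18; adjusted p = 0.549). Prkg1, the cGMP-dependent kinase that phosphorylates Ppp1r17, stood at -0.45 ± 0.15 (adjusted p = 0.727) and Dgkz, a diacylglycerol kinase, at -0.43 ± 0.15 (adjusted p = 0.760). Their arrays did not overlap between genotypes. Among 23 other ataxia genes tested, Tbp included, the median was -0.05, 16 were negative and none passed. Those with the smallest p were Nop56 (0.16 ± 0.10), Tbp, Thap11 (-0.20 ± 0.13) and Atxn3 (-0.16 ± 0.11).

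Marker genes of other cell types were measured on the same arrays. All 10 granule cell markers had negative differences (median -0.23, none passing), where 52.5% of all genes tested did. Against 20.0% of all genes, both KI arrays lay below both WT arrays in 6 of the 10 granule cell markers. Their mean level was 9.66 on KI array 94 and 9.93 on KI array 97, and 10.09 and 9.99 on the WT arrays. Of 10 interneuron markers 8 were negative (median -0.18), with mean levels of 7.14 and 7.09 in KI against 7.14 and 7.37 in WT. Slc6a5 raised the mean of KI array 94: it measured 9.05 there, 7.68 on KI array 97, and 7.69 and 7.98 in WT. The median of the interneuron markers relative to the WT mean was -0.28 on KI array 94 and -0.16 on KI array 97. Of 9 markers of Bergmann glia and astrocytes 6 were negative (median -0.07), and of 7 oligodendrocyte markers 3 (median 0.03). The KI arrays were unlike in the oligodendrocyte markers. Their median relative to the WT mean was 0.23 on KI array 94 and -0.15 on KI array 97. The 4 endothelial and blood markers had a median of -0.01, and the 3 of unipolar brush and nuclear neurons -0.04. Microglial markers were higher on both KI arrays in 5 of 6, against 15.3% of all genes tested. The median difference of these 6 was 0.27, with mean levels of 6.32 and 6.23 in KI against 6.08 and 6.04 in WT. All 8 choroid plexus markers had positive differences (median 0.24), with mean levels of 7.66 and 7.19 in KI against 6.97 and 7.35 in WT, so KI replicate 94 stood highest. Skeletal muscle markers averaged from 5.48 to 5.76 on the cerebellum arrays (6 tested) and from 11.28 to 11.85 on the muscle arrays (8 tested). The part of these shifts in the values of the Purkinje cell genes was not tested.

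**Figure D3:**
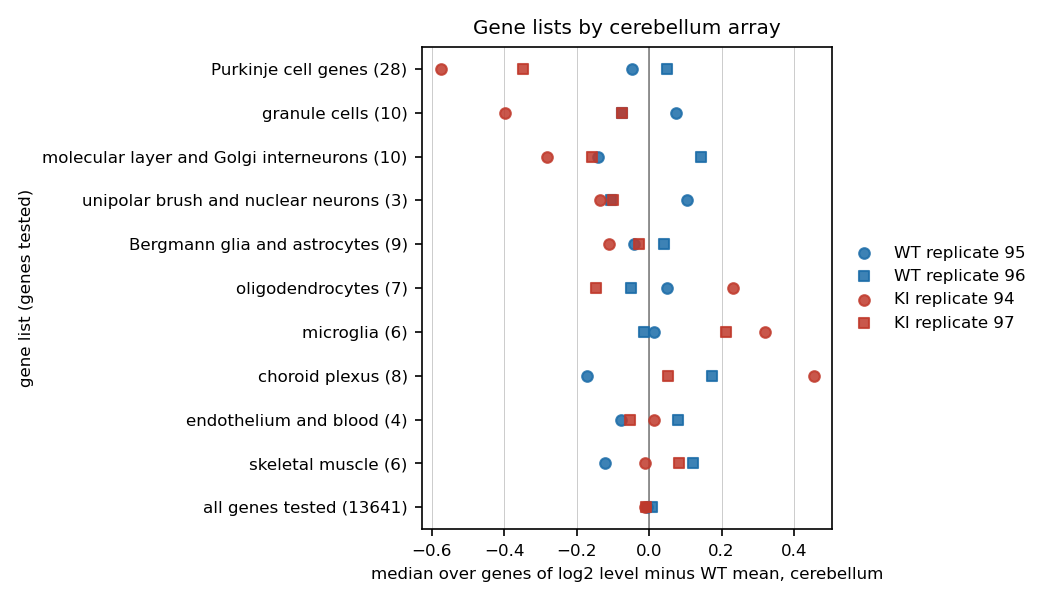
Median over the genes of a list of the log2 level minus the WT mean (x axis) on each of the 4 cerebellum arrays, for the Purkinje cell genes, marker lists of other cell types and all genes tested (y axis, number of genes tested in brackets). The Purkinje cell genes are at -0.58 and -0.35 on the KI arrays, while all genes tested are at -0.01 on both.

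Muscle served as the contrast tissue. Of the 28 genes, 26 had a lower level there than in the cerebellum. Past an adjusted p of 0.05 and a change of at least 2-fold were 19 that were lower in muscle (15.0% of 14708 genes tested were called in that direction) and 1 that was higher (11.0%). The largest difference was that of Calb1, 88.7-fold (-6.47 ± 0.09; adjusted p = 6.01e-11), followed by Pcp4 (42.4-fold), Ppp1r17 (42.1-fold) and Dner (31.8-fold). Muscle levels of Calb1, Ppp1r17, Gpr63 and Lhx5 were below the 40th percentile of all 4 muscle arrays, so these folds depend on the background of the array. Pvalb was the exception, 4.0-fold higher in muscle (2.0 ± 0.09; adjusted p = 3.77e-08). Inpp5a, Rora, Foxp2, Lhx5, Skor2, Kcnma1 and Plcb3 passed the adjusted p at under 2-fold, and Ebf2 did not pass (0.14 ± 0.08; adjusted p = 0.132). Grid2ip, at 2.04-fold, is close to the limit and fell short of 2-fold in 6 alternatives.

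**Figure D4:**
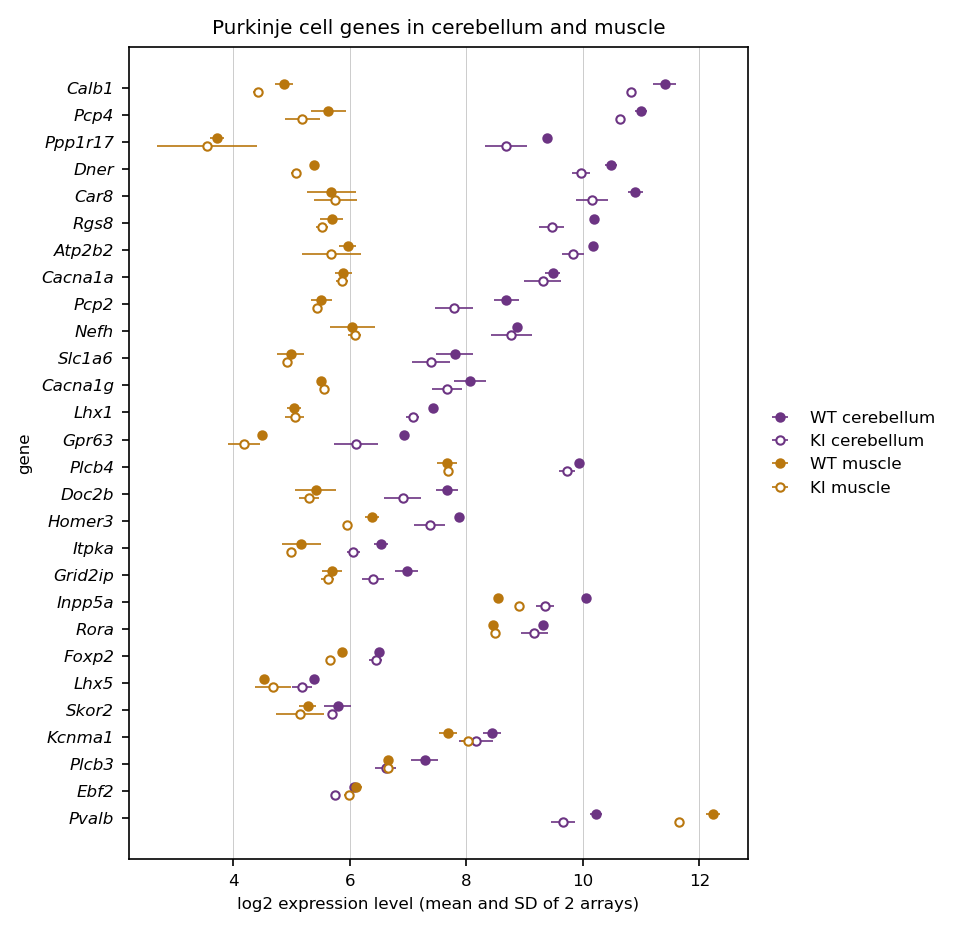
Log2 level (x axis; mean and SD of 2 arrays) of each of the 28 genes (y axis) in WT (filled) and KI (open) cerebellum (purple) and muscle (brown), ordered by the difference between the tissues. Calb1, at the top, is 88.7-fold lower in muscle, and Pvalb, at the bottom, is 4.0-fold higher.

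In KI against WT muscle, 23 of the 28 genes passed the filter on low values. Their median difference was -0.08, against 0.03 over all genes tested in muscle, and 14 of the 23 were negative. Both KI arrays lay below both WT arrays in 5 (19.9% of all genes tested) and above them in 4 (30.3%). Pvalb was the 1 gene that passed, where 3.55% of all genes did: it measured 11.61 and 11.69 in KI against 12.15 and 12.32 in WT. It fell by 0.59 ± 0.13 on the log2 scale (adjusted p = 0.0439), a change of the same size as its difference in the cerebellum. Leaving out a muscle array ended the call (adjusted p 0.114 to 0.169 over the 4), as did leaving out WT cerebellum replicate 95 (0.0771) or 96 (0.0778). All 8 skeletal muscle markers listed here also had negative differences in KI muscle (median -0.51), with Tnni2, a fast troponin, past the threshold (adjusted p = 0.0409). Their part in the Pvalb value was not tested. Among the other genes, Homer3 (-0.43 ± 0.14; adjusted p = 0.128), Pcp4 (-0.44 ± 0.17; 0.195) and Dner (-0.30 ± 0.12; 0.199) were lower without passing. From the wider pathway, Homer1, a scaffold of the same family as Homer3, was the 1 of 32 tested that passed in muscle (-0.62, adjusted p = 0.0218).

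Whether the genotype difference was unequal in the tissues was tested as the muscle difference minus the cerebellum difference. All 28 cerebellum differences were negative, so a gene unchanged in muscle gives a positive value. Only 23 of the 28 passed the filter on low values in muscle. The value was positive in 24 of the 28 genes, which largely restates the cerebellum result. None passed in limma, where 0.143% of 14708 genes did; 8 of the 28 and 2033 of all genes had an unadjusted p under 0.05. Inpp5a had the largest value, 1.05 ± 0.16 (adjusted p = 0.0518): in muscle it measured 8.92 and 8.88 in KI against 8.60 and 8.51 in WT, the opposite order to the cerebellum. It passed in 5 of 17 alternatives. Next were Pcp2 (0.82 ± 0.24; adjusted p = 0.207), Car8 (0.81 ± 0.32; 0.328) and Plcb3 (0.67 ± 0.20; 0.206). For Pvalb the value was -0.01 ± 0.19 and for Pcp4 -0.07 ± 0.24.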

How the data were processed

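Gene expression was measured on 8 arrays. The authors deposited log2 expression values per probe set, and the tools named per the submitters' processing notes are GCOS and RMA. Tool versions, build and the set of arrays in each normalisation were not given in the sources used here. RMA brings arrays normalised together to a like distribution, so a change in total RNA cannot be seen, and it compresses low levels. The medians of the 8 arrays were close but unequal, from 5.40 to 5.51 on the log2 scale.

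Of 35556 probe sets, 21789 carried 1 symbol in the platform annotation, 1621 several and 12146 none; the brightest probe set per gene (mean over 8 arrays) was used. A gene was tested in a tissue if at least 2 of its 4 arrays reached the 40th percentile of the array. limma 3.58.1 (R 4.3.3) fitted 4 group means to all genes (4 residual, 5.30 prior degrees of freedom), with Benjamini-Hochberg adjustment over all genes tested and a threshold of 0.05. Errors after ± are standard errors. With 2 arrays against 2, an exact permutation test could not go below p = 0.333, and 2 arrays per group limit precision.

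The genes, lists, tests and rule for named genes (all members; of other lists the called genes and the 4 with the smallest p in the cerebellum) were chosen with earlier results of these data known. Alternatives were the filter, probe set choice, normalisation, variance model, threshold, arrays left out and a replicate block. The procedure was tested on simulated data.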

Additional observations from a re-analysis of the deposited data

Results flagged for a closer look

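Inpp5a stood out because both KI arrays were below both WT arrays in the cerebellum (20.0% of genes tested) and above them in muscle (30.3%). The muscle difference minus the cerebellum difference was 1.05 ± 0.16 (SE; log2; adjusted p = 0.0518 in limma, from 0.0157 to 0.202 over 17 alternatives). Cacna1g met the same description, but its muscle arrays differed by 0.04 only, at 5.58 and 5.53 in KI against 5.52 and 5.50 in WT, and the difference between tissues was 0.43 ± 0.22 (adjusted p = 0.414).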

How the results depend on the processing

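The negative median over the Purkinje cell genes in KI cerebellum kept its sign in all 17 alternatives. It ran from -0.35 without KI cerebellum replicate 94 to -0.58 without KI cerebellum replicate 97. Leaving out a muscle array, fitting the cerebellum alone, another variance model and another threshold could not change it. These leave the cerebellum group means as they are. The genes with both KI arrays below both WT arrays numbered 20 to 25 with the 4 cerebellum arrays kept. With 1 of them left out the count was 21 to 26, where 1 array stands against 2, which is easier to meet. With 2 arrays per group, 1 array can decide a call. In the cerebellum 1 gene of the list passed, Inpp5a, with the 60th percentile filter (adjusted p = 0.0435), with arrays centred on their medians (0.0396), with trended and robust variances (0.0131) and at an adjusted p of 0.1 (0.0612); it did not with a cerebellum array left out (0.124 to 0.582). Over all genes the count there was 28, and 18 with no filter, 6 over all probe sets and 3 to 29 over arrays left out (3, 4, 5 and 6 without KI 94, WT 95, WT 96 and KI 97 of the cerebellum). In muscle Pvalb was not called (0 genes of the list) after quantile normalisation, without the filter, with the muscle arrays fitted alone or over all probe sets, and arrays left out gave 0 to 1. The muscle count over all genes was 495. It was 246 without the filter, 155 with the muscle arrays fitted alone and 69 over all probe sets. It was 995 at an adjusted p of 0.1 and 108 to 393 with arrays left out. Genes of the list with both KI muscle arrays lower numbered 2 with the 60th percentile filter and 5 with a cerebellum array left out. With a muscle array left out the count was 8 to 11, where 1 array stands against 2, which is easier to meet. For the difference between tissues 1 gene, Inpp5a, passed with the 60th percentile filter, mean probe sets, centred arrays, trended variances and an adjusted p of 0.1. The count over all genes was 21, and 3 with no filter, 38 with the 60th percentile filter, 0 over all probe sets, 63 with trended variances, 108 at an adjusted p of 0.1 and 0 to 16 with arrays left out. The cerebellum differences that changed sign with an array left out were those of Rora (-0.31 to 0.010), Foxp2 (-0.14 to 0.022), Cacna1a (-0.40 to 0.054), Skor2 (-0.27 to 0.060) and Nefh (-0.35 to 0.15). With probe sets averaged, Kcnma1 moved to -0.29 in muscle and to -0.19 for the difference between tissues, since its dim probe set then counts equally. The cause of the other changes was not tested.

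The numbers in the titles recur between tissues but no label says that they are animals. Deviations from the group mean of same-numbered arrays correlated over 14708 genes with r = 0.06 in KI and -0.10 in WT, so the numbers were not taken to pair the arrays. With the number as a replicate block, 20 genes of the list were called between tissues, as without it, and 14 of all genes for the difference between tissues, none of the list.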

Other observations

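Outside the Purkinje cell genes, the lowest difference of all 13641 genes tested in the cerebellum was that of Eomes, a transcription factor of unipolar brush cells. It measured 5.61 and 5.85 in KI against 7.42 and 6.47 in WT (-1.22 ± 0.25, SE; adjusted p = 0.205 in limma), with the WT arrays far apart. It was named after its values were seen. Of the other markers listed with it, Calb2, calretinin, was at -0.04 ± 0.16 and Slc17a6, a vesicular glutamate transporter of nuclear neurons, at 0.25 ± 0.26. Slc17a6 measured 9.06 on KI array 94 and 8.36 on KI array 97, against 8.57 and 8.36 in WT.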
